A study of Mus musculus with 6 samples.

Results

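The genes described here are the 5 subunits of the transcription factor NF-kB (Nfkb1, Nfkb2, Rel, Rela and Relb) and 5 genes of its I-kappa-B family (Nfkbia, Nfkbib, Nfkbie, Nfkbiz and Bcl3). They were found by symbol among the 55401 genes of the deposited table. Each symbol matched 1 identifier, and all 10 genes passed the filter on low counts, as 15272 of all listed genes did. The study compared 3 samples of mouse cells given neutrophil extracellular traps (NETs, extruded chromatin that carries granule proteins) with 3 samples of unexposed cells, whose treatment label is "Normal". All 6 samples carry the genotype WT and the cell type BMDM, bone marrow-derived macrophages, but BV2, which is a microglial line, stands in their titles. The sources used here do not give the dose, origin or duration of the NETs treatment, nor say whether samples of a group were separate cultures. P-values thus cover only the spread among these samples, and that spread may be technical.

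Total counts per library lay between 39994613 and 44274445. Levels are CPM, counts scaled to library depth with TMM factors. All 10 genes of a macrophage list were tested, and 2 were called higher and 8 lower (edgeR adjusted p under 0.05). The shares of all tested genes called, beside which the marker counts stand, were 25.5% higher and 27.2% lower. The lysozyme gene Lyz2 stood at 3526 ± 144 CPM in NETs-treated and 2978 ± 81.2 CPM in control cells (SD, n = 3 each). Of a microglia list, Sall1 was at 0 in every library, and of the 7 tested genes 1 was called higher and 5 lower, among them Trem2, a lipid receptor gene, at 88.4 ± 2.72 CPM in NETs-treated and 190.0 ± 3.24 CPM in control cells. The markers do not tell the 2 names apart. Of 12 neutrophil genes, S100a9, Mpo, Ltf, Ngp, Ly6g and Retnlg were at 0 in every library. The summed level of the list was 10.9 to 16.8 CPM in NETs-treated and 6.52 to 8.57 CPM in control libraries, with S100a8 at 11.7 ± 2.67 CPM in NETs-treated and 2.68 ± 0.59 CPM in control cells. Of the 4 tested genes of that list S100a8 was called higher, Cxcr2 and Prtn3 were called lower, and Mmp8 did not pass the test. Of the T or NK cell, B cell and fibroblast lists no gene passed the filter. Of 6 dendritic cell genes, Zbtb46 and Itgax passed the filter and Ccr7 and Clec9a were at 0 throughout. Itgax was called lower, at 55.2 ± 0.98 CPM in NETs-treated and 152 ± 4.17 CPM in control cells. Zbtb46 did not pass the test. The part of these marker differences in the results was not tested.

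NF-kB is a dimer of proteins that share the Rel homology domain. In resting macrophages most dimers are held in the cytoplasm by the classical inhibitors I-kappa-B alpha, beta and epsilon. Signals from Toll-like receptors and cytokine receptors activate the IKK kinases, which mark these inhibitors for degradation and free the dimers to enter the nucleus. Several genes of the family are themselves targets of NF-kB, so that new inhibitor is made while the pathway is active. The atypical members among the 10, I-kappa-B zeta (Nfkbiz) and Bcl-3 (Bcl3), act in the nucleus, where they modify transcription by bound dimers.

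All 10 transcripts were higher in NETs-treated than in control cells, and the 3 NETs-treated libraries lay above the 3 control libraries for each of the 10. Every one passed an adjusted p of 0.05 (edgeR quasi-likelihood test, Benjamini-Hochberg adjustment over all genes tested, n = 3 per group). Of all tested genes 25.5% were called higher and 52.7% in either direction, while 29.9% had all NETs-treated above all control libraries and 32.5% had them all below. At least a 2-fold rise was called for 5 of the 10, against 7.39% of all tested genes. The median log2 fold change of the 10 was 0.89, beside -0.02 for all tested genes. The 5 I-kappa-B genes had a median of 1.86 and the 5 subunits a median of 0.37. In these bulk samples more transcript per cell and more cells with the transcript cannot be told apart.

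**Figure D1:**
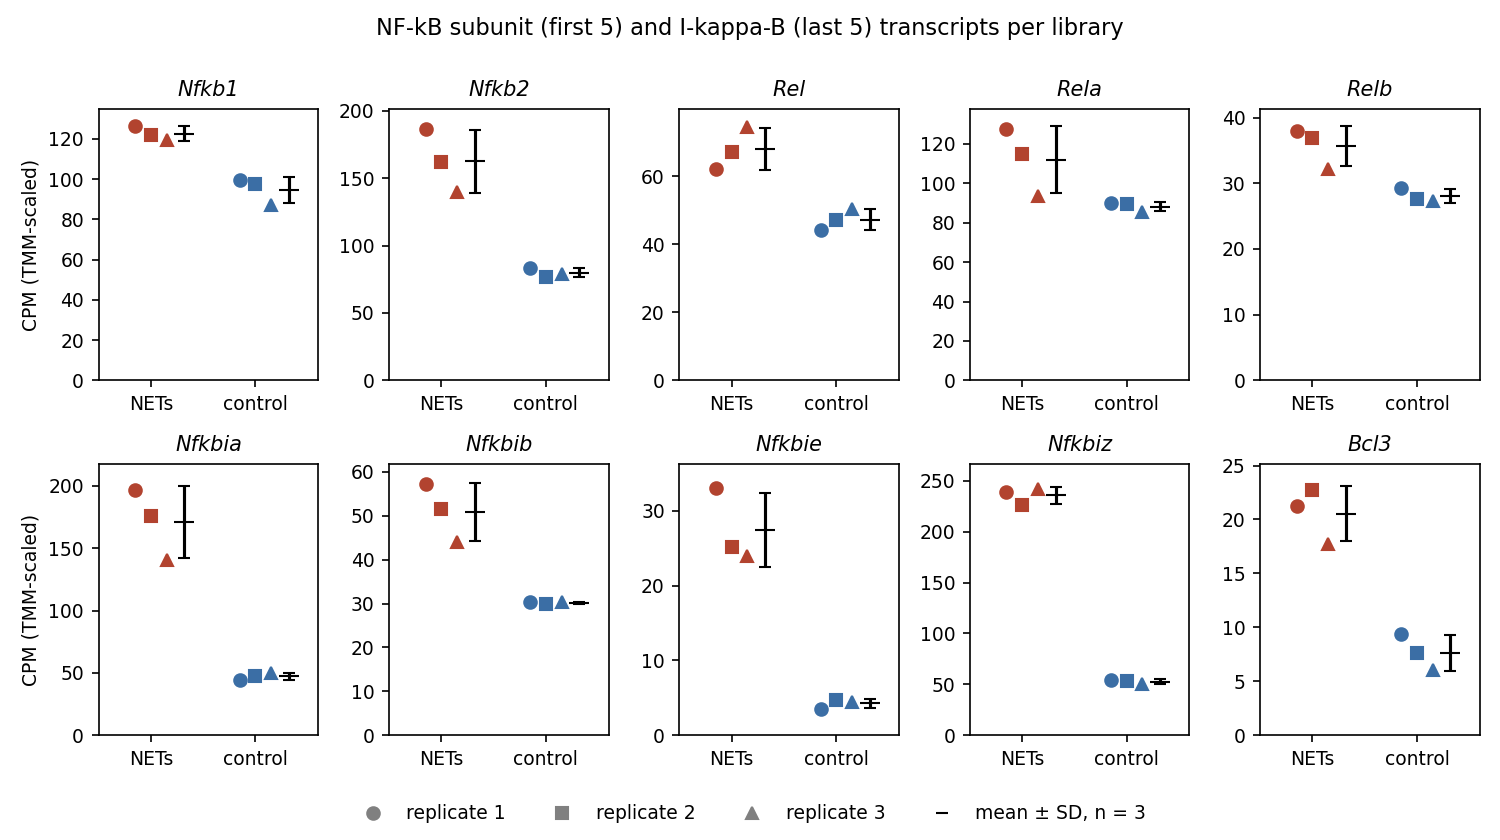
TMM-scaled CPM (vertical axes, each from 0) of the 10 genes in each NETs-treated library (red, left) and control library (blue, right), with symbols for the replicate and black bars for the mean ± SD of 3 libraries. The groups do not overlap in any panel, and the gap is narrowest for Rela, where the lowest NETs-treated library had 93.7 CPM and the highest control library 89.8 CPM.

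Among the classical inhibitors, Nfkbia and Nfkbie changed several-fold and Nfkbib less. Nfkbia encodes I-kappa-B alpha, the inhibitor that is resynthesised fastest after NF-kB activation. NETs-treated libraries had 197, 176 and 140.3 CPM of it, against 44.3, 47.3 and 50.1 CPM in control libraries. The lowest NETs-treated library was thus far above the highest control library. The rise was 3.62-fold, a log2 fold change of 1.86 ± 0.12 (SE; edgeR adjusted p = 7.58e-06). The gene (ENSMUSG00000021025.8) lies on the minus strand of chromosome 12 from 55489410 to 55492647 (GRCm38, GENCODE M21).

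Nfkbie, which encodes I-kappa-B epsilon, the inhibitor best known for holding dimers that contain RelA or c-Rel, showed the widest relative difference of the 10. Its level was 33.1, 25.1 and 24.0 CPM in NETs-treated libraries, against 3.56, 4.76 and 4.45 CPM in the control libraries. Per kilobase of exon its level exceeded that of 65.2% of tested genes in NETs-treated and 28.1% in control cells. The rise was 6.43-fold, a log2 fold change of 2.69 ± 0.18 (edgeR adjusted p = 6.46e-06), and the absolute log2 fold change was above that of 96.4% of tested genes. Nfkbie (ENSMUSG00000023947.8) spans 45555703 to 45563169 on the plus strand of chromosome 17.

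Nfkbib encodes I-kappa-B beta, an inhibitor whose gene is known as a weaker NF-kB target than Nfkbia. The NETs-treated libraries had 57.2, 51.5 and 43.9 CPM and the control libraries 30.3, 30.0 and 30.4 CPM. The control libraries were nearly equal to each other, and the NETs-treated ones spread over a 1.30-fold range above them. The log2 fold change was 0.75 ± 0.10 (edgeR adjusted p = 0.000402). The gene (ENSMUSG00000030595.15) spans 28758251 to 28767512 on chromosome 7. Per kilobase the level of Nfkbia over that of Nfkbib was 4.64, 4.60 and 4.30 in NETs-treated libraries, against 1.97, 2.13 and 2.22 in control libraries, so the makeup of the inhibitor transcripts differed as well as their amount.

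Both atypical genes among the 10 rose. Nfkbiz encodes I-kappa-B zeta, a nuclear cofactor that is induced by Toll-like receptor and interleukin-1 signalling and is needed for transcription of Il6 and other secondary response genes in macrophages. Its level was 239, 226 and 242 CPM in NETs-treated libraries, against 54.7, 53.7 and 50.1 CPM in the control libraries. Both groups were tight, with the highest library 1.07 times the lowest among the NETs-treated and 1.09 times among the control libraries. Its log2 fold change of 2.16 ± 0.07 had the smallest SE and the smallest adjusted p of the 10 (edgeR adjusted p = 2.30e-07). The gene (ENSMUSG00000035356.17) spans 55811375 to 55838899 on chromosome 16.

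Bcl3 encodes a nuclear protein that binds homodimers of the Nfkb1 and Nfkb2 products and can activate or repress their targets. Its level was 21.2, 22.7 and 17.7 CPM in NETs-treated libraries and 9.35, 7.61 and 6.01 CPM in the control libraries. Per kilobase of exon it exceeded 63.4% of tested genes in NETs-treated and 40.6% in control cells. The control libraries differed 1.55-fold among themselves, the widest spread of the 10 genes in that group. The log2 fold change was 1.42 ± 0.18 (edgeR adjusted p = 0.000251). Bcl3 (ENSMUSG00000053175.17) spans 19808462 to 19822770 on chromosome 7.

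The subunits rose less than most of the I-kappa-B genes. Nfkb2, whose precursor protein is processed by way of the kinase NIK and which itself retains RelB in the cytoplasm, had the largest change of the 5. NETs-treated libraries had 186, 162 and 139 CPM of Nfkb2, against 83.6, 77.0 and 79.2 CPM in the control libraries. The NETs-treated libraries were 1.34-fold apart, yet the lowest of them was well above every control library. The log2 fold change was 1.02 ± 0.11 (edgeR adjusted p = 8.29e-05). Nfkb2 (ENSMUSG00000025225.15) spans 46304320 to 46312385 on chromosome 19.

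Nfkb1 encodes the other precursor, from which the most common partner of RelA is made. Its NETs-treated libraries had 127, 122 and 119 CPM and its control libraries 99.3, 97.4 and 87.2 CPM. This was a small and even difference, with a log2 fold change of 0.37 ± 0.07 (edgeR adjusted p = 0.00309). Per kilobase of exon Nfkb2 exceeded Nfkb1 by 3.87, 3.50 and 3.07 times in NETs-treated libraries, against 2.21, 2.08 and 2.39 times in control libraries. The ratio of Nfkb2 to Nfkb1 was therefore higher in every NETs-treated library than in every control library. Which of the 2 stood higher in control cells depends on the length used. By the longest transcript, Nfkb1 made up 25.1% and Nfkb2 22.9% of the summed subunit level in control cells. In NETs-treated cells these shares were 22.3% and 31.7%. Nfkb1 (ENSMUSG00000028163.17) spans 135584655 to 135691547 on chromosome 3.

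Rel, which encodes c-Rel, the subunit most tied to Il12b transcription in macrophages, measured 62.2, 67.1 and 74.5 CPM in NETs-treated libraries, against 44.1, 47.0 and 50.3 CPM in the control libraries. The log2 fold change was 0.53 ± 0.09 (edgeR adjusted p = 0.00147). Unlike most of the family, Rel was highest in NETs-treated replicate 3 and lowest in replicate 1. Rel (ENSMUSG00000020275.9) spans 23736847 to 23770970 on chromosome 11.

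The changes of Rela and Relb were small and, given their SE, not set apart from that of Nfkb1. Rela encodes the main transactivating subunit of the canonical pathway. Its level was 128, 115 and 93.7 CPM in NETs-treated libraries, against 89.8, 89.3 and 85.4 CPM in the control libraries, and a log2 fold change of 0.34 ± 0.11 (edgeR adjusted p = 0.0273). The call for Rela was lost without control replicate 1, 2 or 3 (adjusted p = 0.0645, 0.0691 and 0.0910), without NETs-treated replicate 2 (0.0673), with scaling by library size only (0.0657) and without the filter on low counts (0.0604). With correction for transcript GC content its log2 fold change was 0.52 ± 0.07. Relb encodes the partner of the processed Nfkb2 product. Its level was 38.0, 36.9 and 32.2 CPM in NETs-treated libraries, against 29.2, 27.6 and 27.3 CPM in the control libraries. Its log2 fold change was 0.35 ± 0.09 (edgeR adjusted p = 0.0122), a call lost without control replicate 2 (0.0509) or 3 (0.0532). Rela (ENSMUSG00000024927.8) spans 5637483 to 5648130 on chromosome 19, and Relb (ENSMUSG00000002983.17) spans 19606217 to 19629438 on chromosome 7.

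**Figure D2:**
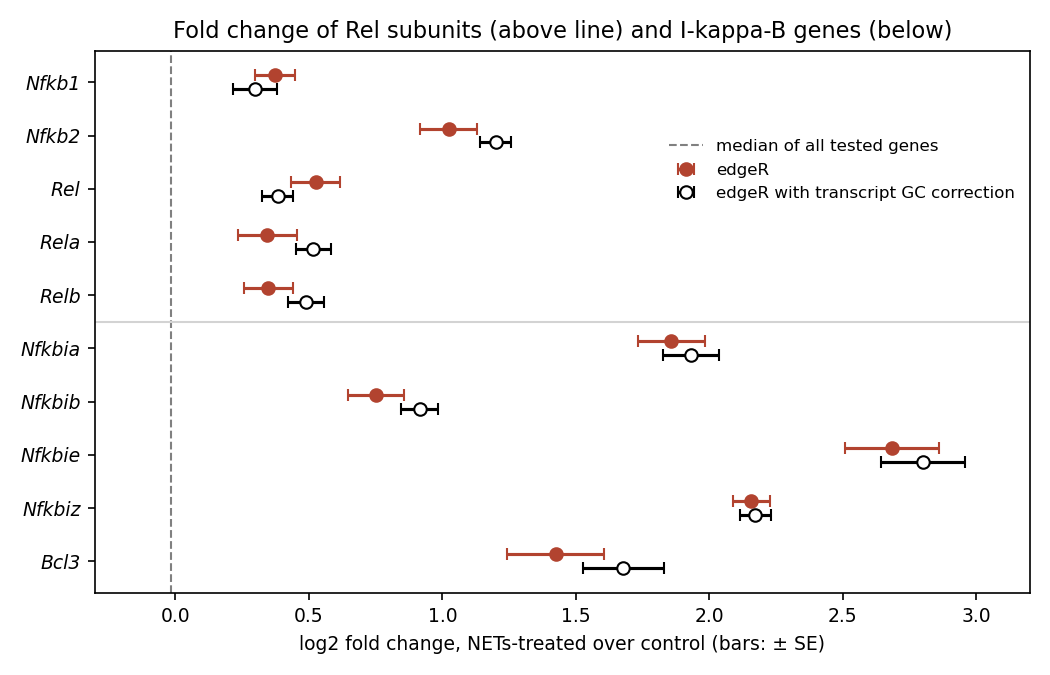
Log2 fold change of NETs-treated over control cells (horizontal axis, bars ± SE) for the 5 subunits and the 5 I-kappa-B genes, from edgeR (red) and from edgeR with a correction for transcript GC content (open circles); the dashed line is the median of all tested genes, -0.02. Both fits place every gene to the right of that line, and the open circle of Rela is at 0.52 beside a filled one at 0.34, and that of Rel at 0.38 beside 0.53.

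The order of the libraries within the NETs-treated group was much alike across the family. In 7 of the 10 genes NETs-treated replicate 1 was the highest and replicate 3 the lowest. How many of all tested genes had this order was not counted, so it is not shown to be particular to the family. The same libraries differed in how counts depended on transcript GC content: the median of the fifth of genes richest in GC minus that of the fifth poorest, on the log2 scale about each gene's mean, was 0.11, -0.20 and -0.45 in NETs-treated replicates 1, 2 and 3, against 0.33, 0.11 and 0.12 in the control replicates. The 10 transcripts ranged from 42.5% GC (Rel) to 62.6% (Bcl3). After a correction for this trend, chosen after seeing the data, the ratio of the highest to the lowest NETs-treated library was 1.29 in place of 1.40 for Nfkbia, 1.10 in place of 1.34 for Nfkb2, 1.13 in place of 1.36 for Rela and 1.03 in place of 1.20 for Rel. For Nfkb1 it was 1.17 in place of 1.06, and for Nfkbiz 1.09 in place of 1.07. In the control group the ratio rose for some genes (Nfkbia, 1.17 in place of 1.13) and fell for others (Bcl3, 1.40 in place of 1.55). The GC trend itself ran lower in the NETs-treated than in the control libraries, so the correction cannot be separated from the treatment. All 10 genes kept groups that did not overlap and an adjusted p under 0.05 in that fit. The order among the 4 subunits with small changes did not hold, since Rela (0.52) and Relb (0.49) then stood above Rel (0.38) and Nfkb1 (0.30).

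Levels of different genes were compared as CPM per kilobase of the gene's joined exons. In NETs-treated cells Nfkbia stood first at 106 ± 17.8 CPM per kilobase (SD, n = 3), before Nfkbiz at 47.0 ± 1.74. Rela at 36.4 ± 5.56 and Nfkb2 at 35.5 ± 5.13 did not differ beyond their spread. Nfkbib followed at 23.5 ± 3.06, then Nfkb1 at 10.2, whose 3 libraries lay just above those of Relb. The Nfkb1 libraries overlapped those of Rel (up to 9.97) and Nfkbie (up to 10.9), so Nfkb1 did not stand above them beyond the spread. Relb (9.19), Rel (9.10), Nfkbie (8.99) and Bcl3 (8.30) had libraries that overlapped between neighbours. In control cells Nfkbia at 29.3 ± 1.82 and Rela at 28.7 ± 0.79 CPM per kilobase shared the top and did not differ beyond their spread. Nfkb2 at 17.4, Nfkbib at 13.9, Nfkbiz at 10.5 and Nfkb1 at 7.85 came next, then Relb at 7.22, which did not differ from Nfkb1 beyond the spread, and Rel at 6.32. The 2 lowest were Bcl3 at 3.09 and Nfkbie at 1.40. Nfkb1 has a joined exon length of 12061 bases but a longest transcript of 4149 bases. With the transcript length its level would be 29.5 in NETs-treated and 22.8 CPM per kilobase in control cells, so its place in either order depends on the length used.

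The balance of the transcripts differed between the groups. Summed per kilobase, the 3 classical inhibitors over the 5 subunits gave ratios of 1.44, 1.40 and 1.29 in the NETs-treated libraries, against 0.616, 0.665 and 0.705 in the control libraries. With the longest transcript as length the mean ratios were 1.06 in NETs-treated and 0.507 in control cells. Within the subunits, Nfkb2 made up 35.2% ± 1.32 of the summed level in NETs-treated and 25.8% ± 0.77 in control cells. Rela made up 36.2% ± 1.72 in NETs-treated and 42.5% ± 0.59 in control cells. Nfkb1 made up 10.2% in NETs-treated and 11.6% in control cells. The size of these shares depends on the length used. With the longest transcript, the shares in NETs-treated cells were 31.7% for Nfkb2, 30.9% for Rela and 22.3% for Nfkb1. In control cells they were 22.9%, 35.7% and 25.1%. The share of Rel was 9.20% ± 1.86 in NETs-treated and 9.37% ± 0.83 in control cells, with libraries that overlapped, so no difference was seen beyond the spread. These ratios and shares are descriptions of the libraries with no test, and transcript ratios are not protein ratios.

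**Figure D3:**
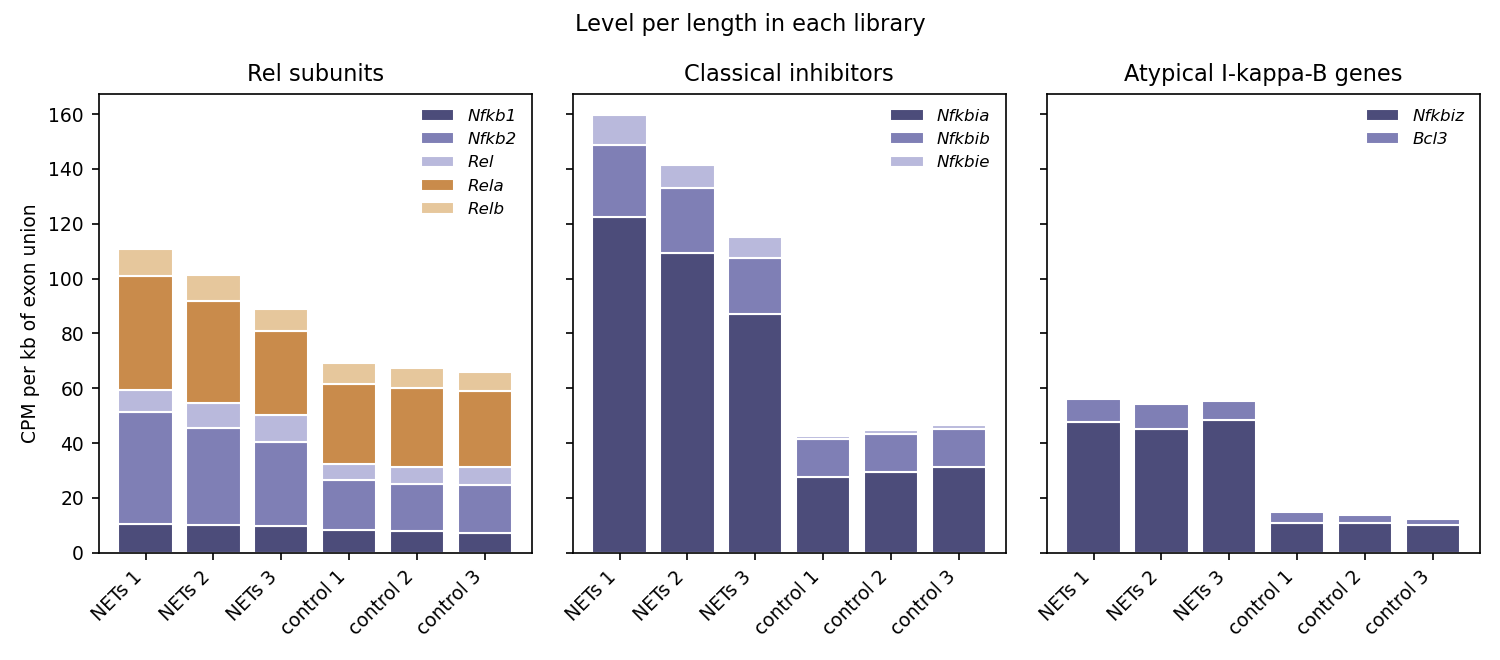
Stacked CPM per kilobase of joined exons (vertical axis from 0, the same for the 3 panels) of the subunits, the classical inhibitors and the atypical genes in each NETs-treated and control library. The inhibitor stack reaches 115 to 159.5 in the NETs-treated and 42.6 to 46.6 in the control libraries, mostly from Nfkbia, and the subunit stack 89.0 to 111 in the NETs-treated and 66.1 to 69.1 in the control libraries.

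Promoter sequence was looked at because the members moved together and several are known NF-kB targets. RefSeq (GRCm38.p6) gave windows for 7 of the 10 genes (Nfkb2, Rel, Rela, Nfkbia, Nfkbib, Nfkbie and Bcl3), and the 250 bases before each start were searched on both strands for the kappa-B consensus. It was found in 4 of the 7, Nfkbia, Nfkbie, Nfkb2 and Rel, while 8.23% of 27025 genes with a window hold it. No match was found in the windows of Rela, Nfkbib and Bcl3, which says only that these letters are not in those windows. The Nfkbib window lies inside the GENCODE M21 span of the gene, so the bases before that annotated start were not searched. The windows of the 7 genes ran from 57.6% to 77.6% GC. GGGCGG, the box bound by Sp1, was found in 6 of the 7, all but Nfkbib, against 35.4% of genes, and TATAAA in none of them, against 14.3% of genes. A match is a description of the letters and not evidence of binding.

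The sequences shown are the window of Nfkbia, the most abundant transcript of the family in NETs-treated cells, and some of the matches in the other 3 genes, with 10 bases on each side. Letters are 5′ to 3′ on the gene's strand, capitals mark the kappa-B match, and positions count back from the start. The Nfkbia window (chr12:55492648-55492897, minus strand) has its match from -29 to -20, read on the opposite strand. The Nfkbie match (chr17:45555584-45555613, plus strand) begins at -106. Nfkb2 has 3 windows, 1 for each RefSeq start. All 3 lie inside the GENCODE M21 span of the gene, which begins at 46304320. A palindromic match begins at -39 of the most upstream start (chr19:46304688-46304717, plus strand), overlapped by another that is shifted by 1 base, and one at -225 of the most downstream start (chr19:46305695-46305724). Nfkb2 has 2 further matches that are not printed, at -11 of the most upstream start and at -236 of the middle start. The Rel match (chr11:23771042-23771071, minus strand) begins at -92 and is likewise overlapped by another shifted by 1 base.
Nfkbia: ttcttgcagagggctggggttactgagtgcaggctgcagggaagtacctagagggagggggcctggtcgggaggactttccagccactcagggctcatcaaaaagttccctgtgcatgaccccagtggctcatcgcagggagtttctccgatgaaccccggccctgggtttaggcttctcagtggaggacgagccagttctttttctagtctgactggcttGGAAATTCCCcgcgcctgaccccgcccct
Nfkbie: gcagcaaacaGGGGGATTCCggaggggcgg
Nfkb2, upstream start: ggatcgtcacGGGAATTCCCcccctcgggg
Nfkb2, downstream start: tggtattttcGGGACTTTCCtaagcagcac
Rel: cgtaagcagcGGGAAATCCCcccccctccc
Of the 4 genes with a match, Nfkbie, Nfkbia and Nfkb2 had log2 fold changes of 2.69, 1.86 and 1.02, and Rel had 0.53. Of the 3 without, Bcl3 had 1.42, Nfkbib 0.75 and Rela 0.34. The values of the 2 sets overlap.

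The rest of the pathway did not move in one direction. Of 92 other tested genes of NF-kB signalling, in 7 lists, 40 rose and 18 fell, beside 25.5% and 27.2% of all tested genes (edgeR adjusted p under 0.05). Their median log2 fold change was 0.20. Under the alternative fits 36 to 46 rose and 12 to 22 fell. The lists were chosen with results of these data known, so their counts are descriptions.

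The IKK complex and the kinases that act on it or beside it had 7 of 11 members higher and 2 lower, with a median of 0.39. Map3k8, the kinase TPL2 that the Nfkb1 precursor keeps inactive, rose most, to 21.6 ± 1.51 CPM in NETs-treated cells, against 5.54 ± 0.354 CPM in control cells (SD, n = 3 each). Both IKK-related kinases moved, in opposite directions. Tbk1 rose to 112 ± 6.50 CPM in NETs-treated cells, against 55.8 ± 2.88 CPM in control cells. Ikbke, which encodes IKK epsilon, fell with a log2 fold change of -1.41 ± 0.08. Tab1, an adaptor of the kinase TAK1, fell with a log2 fold change of -0.60 ± 0.12.

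Adaptors and ubiquitin ligases upstream of IKK had 10 of 21 members higher and 3 lower, with a median of 0.19. Under many alternative fits, the DESeq2 Wald test and the replicate block among them, 2 were lower. Irak3, which encodes IRAK-M, a brake on Toll-like receptor signalling in macrophages, had the largest rise, with a log2 fold change of 2.07 ± 0.13. Irak1, the kinase of the same complex, fell with -1.28 ± 0.08. Ripk2, the kinase of the NOD receptors, rose with 1.28 ± 0.09, and Rbck1, which encodes the HOIL-1 subunit of the linear ubiquitin ligase, fell with -0.82 ± 0.12.

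Of 6 receptors that feed the pathway through NIK, 2 rose and 3 fell. Leaving out control replicate 1 or 2 or NETs-treated replicate 2 left 1 that rose. Leaving out control replicate 1, NETs-treated replicate 2 or NETs-treated replicate 3, or the low-count filter, left 1 that fell. Tnfrsf1b, which encodes TNF receptor 2, rose to 335 ± 11.5 CPM in NETs-treated cells, against 139 ± 7.09 CPM in control cells. Tnfrsf11a, which encodes the receptor RANK, fell with a log2 fold change of -1.40 ± 0.19. Cd40 rose by 0.44 ± 0.13, a call lost without control replicate 1 (edgeR adjusted p = 0.0806), control replicate 2 (0.0836) or NETs-treated replicate 2 (0.0526). Tnfrsf12a, which encodes the receptor of TWEAK, fell by 0.76 ± 0.25 on the log2 scale. Its call was lost without the filter on low counts (0.0697) and without control replicate 1 (0.139), NETs-treated replicate 2 (0.105) or NETs-treated replicate 3 (0.0797).

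Genes that degrade phosphorylated I-kappa-B had 3 of 9 tested members higher and 1 lower, with 2 or 3 lower under 7 alternatives, the fit without NETs-treated replicate 1 among them. Skp1a and Cul1, parts of 1 ubiquitin ligase, moved apart, with log2 fold changes of 0.60 ± 0.10 and -0.50 ± 0.08. Nedd8, the modifier that activates this ligase, had 0.48 ± 0.15, a call lost with scaling by library size only (edgeR adjusted p = 0.0509), without the low-count filter (0.0671) and without control replicate 2 (0.0735), control replicate 3 (0.100), NETs-treated replicate 1 (0.0502) or NETs-treated replicate 2 (0.0714). Other I-kappa-B-like and NF-kB-binding regulators had 2 of 10 higher and 2 lower. The I-kappa-B-like gene Nfkbid was among those higher, with a log2 fold change of 0.55 ± 0.12. That lies below the lowest I-kappa-B gene of the family, at 0.75. The repressor gene Nkrf had 0.97 ± 0.11, Pdlim2, which targets RelA for degradation, had -0.86 ± 0.23, and Commd1, which promotes the turnover of RelA, had -0.79 ± 0.10. Of 12 coactivator and corepressor genes 3 rose and 3 fell, or 1 fell without control replicate 1. They include the deacetylase gene Hdac1 at 0.91 ± 0.09, the elongation kinase gene Cdk9 at 0.67 ± 0.11 and the coactivator gene Ncoa1 at -0.67 ± 0.09. Sirt6, a deacetylase gene, had -0.71 ± 0.19, a call lost without control replicate 1 (0.0533) or 3 (0.0535).

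Textbook NF-kB target genes, outside the family, had 13 of 23 tested members higher and 4 lower, with a median of 0.73. Csf3, Il1b and Cxcl2, genes of secreted inflammatory proteins, had log2 fold changes of 9.67 ± 0.27, 6.36 ± 0.24 and 5.05 ± 0.07. Against them, Gadd45b, a stress response gene, had -1.25 ± 0.10, and Bcl2l1, which encodes the survival protein Bcl-xL, had -1.02 ± 0.13. Tnf and Ccl2, also genes of secreted inflammatory proteins, were called lower as well, with -0.39 ± 0.12 and -0.87 ± 0.09. The target list thus spread from strong rises to clear falls, whereas the 10 family genes all lay on 1 side.

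**Figure D4:**
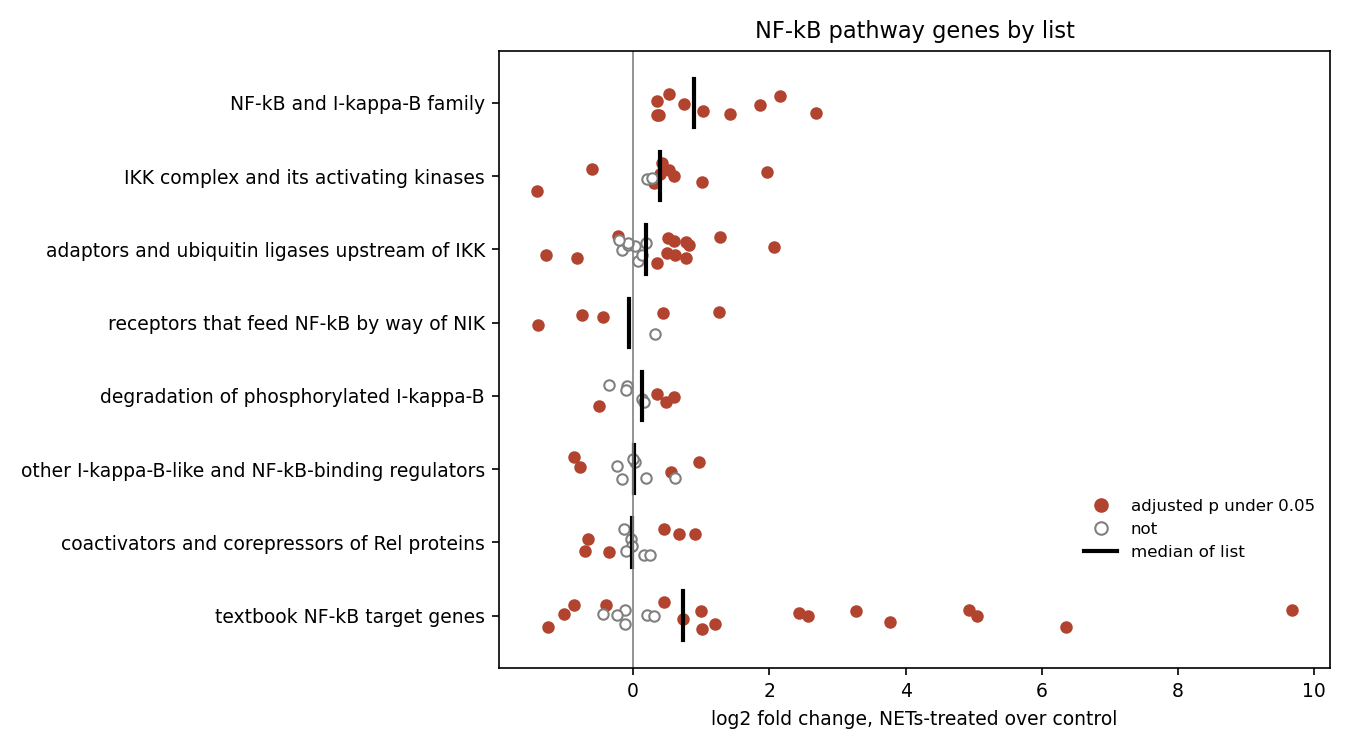
Log2 fold change of NETs-treated over control cells (horizontal axis) for the family (top) and 7 lists of other pathway genes, with filled points for genes past an adjusted p of 0.05, open points for the others and a black line for each list's median. The family has no point left of 0 and a median of 0.89, the target genes run to 9.67 with a median of 0.73, and the other lists have medians from -0.06 to 0.39.

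Among the genes most like Nfkb1 over the 6 libraries, by Euclidean distance of log2(CPM + 1) centred on each gene's mean, were Mapk8ip3 and Slc12a4, with log2 fold changes of 0.36 and 0.34. Those most like Nfkbia were Ezr, Map3k8 and Acod1, with 1.80, 1.96 and 1.93. With 2 groups, the likeness rests mainly on a similar fold change.

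Reads of overlapping genes may not be parted, since the sources used here do not name the strand setting of the counting. On the opposite strand, Psd shares 299 exon bases with Nfkb2 and measured 23.5, 16.5 and 16.5 CPM in NETs-treated libraries, against 9.51, 8.84 and 8.55 CPM in the control libraries. A noncoding gene, AC114539.1, shares 531 bases with Nfkb2 at no more than 5.13 CPM. Sirt2 shares 42 bases with Nfkbib and measured 95.6, 72.2 and 55.9 CPM in NETs-treated libraries, against 98.4, 85.7 and 85.6 CPM in the control libraries. Ccer2, which shares 314 bases with Nfkbib, and Gm16175, which shares 161 with Bcl3, reached at most 0.0766 and 0.212 CPM. The other 7 genes share no exon bases with another annotated gene.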

How the data were processed

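Total RNA of 3 NETs-treated and 3 control samples went into RNA-seq libraries that the labels' protocols call strand-specific. HISAT2, DESeq2, mm10 and rn6 appear in the submitters' processing notes without version or role, and the sources used here name neither the counting program nor the annotation. Per the file headers, the authors' single deposited table gives raw counts for 55401 genes. Its normalised counts are, as checked on the values, a deposited signal equal to each count over a size factor of its sample. The log2 fold change and the p-value of each gene by the authors, deposited beside them, served as an alternative.

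Raw counts were fitted with the quasi-likelihood test of edgeR 4.0.16 (R 4.3.3) with all 6 samples in 1 two-sided fit, TMM factors and no covariates. Its filter (minimum count 10, minimum total 15) kept 15272 genes holding 99.9% of counts, and p-values were adjusted by Benjamini-Hochberg over these, with a threshold of 0.05. Each SE was derived from the fold change and the F statistic. The fit was tested on simulated data. No 2 libraries of a group agreed within sampling noise (chi-square per gene 9.89 to 78.3). Coordinates and lengths are from GENCODE M21 (GRCm38), which holds 54349 of the table's versioned identifiers, all 10 family genes included.

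Alternatives were other scalings (DESeq2 size factors, library size, upper quartile), the DESeq2 1.42.0 Wald test, limma-voom 3.58.1, other filters, the replicate number as a block, each sample left out, the longest transcript as length, and, added after seeing the data, a lowess correction (span 0.3) for the GC content of the longest transcript. Family genes and lists were chosen with earlier results of these data known. From each pathway list were named up to 3 called genes with the largest change and up to 2 called genes against the majority. Tnf, Ccl2 and Nfkbid were added outside this rule. From each marker list were named the 2 most abundant genes, the most changed called gene and those at 0; some of these are given as counts only. Reference genes (Actb, 3851 ± 255 CPM in NETs-treated and 2416 ± 50.0 CPM in control cells, and Ppia, 672 ± 201 CPM in NETs-treated and 928 ± 79.4 CPM in control cells, among them) had 1 of 5 called higher and 1 lower. Protein sequences were not analysed here. Some genes that the naming rule picks are not reported here.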

Additional observations from a re-analysis of the deposited data

How the results depend on the processing

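Over 17 alternatives, 8 of the 10 family genes kept their direction and their call in all of them, with log2 fold changes from 0.30 to 0.41 for Nfkb1, 0.93 to 1.20 for Nfkb2, 0.38 to 0.60 for Rel, 1.76 to 1.98 for Nfkbia, 0.68 to 0.92 for Nfkbib, 2.54 to 2.81 for Nfkbie, 2.08 to 2.20 for Nfkbiz and 1.28 to 1.69 for Bcl3. Rela kept its direction but lost its call in 6, at a log2 fold change of 0.27 with library size only and 0.34 without the low-count filter; leaving out 1 library at a time gave 0.26 to 0.46. Relb lost its call in 2, both with a library left out, over a range of 0.32 to 0.42. The cause was not tested. The number of family genes called higher was 8 to 10, and of all genes called higher 3277 to 4181. The inhibitor to subunit ratio with the longest transcript as length was 1.06 in NETs-treated and 0.507 in control cells. That alternative shortens most of the genes, Nfkb1 the most, and their shares in the change were not tested. Groups share replicate numbers, and the deviations of same-numbered samples correlated at 0.12, 0.03 and 0.07. These values are small, but every NETs-treated sample correlated best with its own number. Whether the numbers pair the samples was thus not settled. With the replicate block 10 family genes, and 3896 genes higher and 4209 lower in all, were called. The naming rules picked 44 other tested genes. Of their 747 values under the alternatives, 722 kept their direction and side of the threshold. Another 20 lost the call, 5 gained it and none reversed. With 3 libraries per group, the spread between replicates and not depth limits these comparisons; the lowest family level in a library was 3.56 CPM.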
